A study of Mus musculus with 6 samples.

Results

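Small leucine-rich proteoglycans are secreted proteins built on a core of leucine-rich repeats, most of which carry glycosaminoglycan chains and bind collagen fibrils and growth factors. The 9 genes described here are 7 members of that family (Dcn, Bgn, Aspn, Lum, Fmod, Prelp and Ogn) and 2 other genes of connective tissue cells, Dpt and Pdgfra. They were chosen by symbol, not by a threshold on their levels, from the 55291 genes in the count tables, and all 9 were followed in all 6 libraries. The libraries were made from mammary cells of pubertal mice aged 6 weeks, all of the genotype Adgra3-lz/+, in which 1 allele of Adgra3 (which encodes the adhesion receptor Gpr125) makes a Gpr125-β-galactosidase fusion. Glands from 5 mice were pooled for each sample according to the series record, while the methods of the study give a lower number per genotype for FDG staining in general. Cells bearing CD31, CD45 or Ter119 were excluded, and cells with high surface CD49f (integrin α6) were sorted by their turnover of FDG, a β-galactosidase substrate that becomes fluorescent. There were 2 libraries each of FDG-negative (Gpr125-negative) cells, whose labels name no region, of FDG-positive cells from the distal part of the gland that holds the terminal end buds (TEB-distal Gpr125+) and of FDG-positive cells from the part near the nipple (nipple-proximal Gpr125+). The labels do not tie the replicates of a group to separate mice, and the study calls its n biological replicates for all experiments without naming these libraries, so the tests measure the spread between these samples, which may be technical.

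In the mammary gland these proteoglycans are known as products of the stroma that surrounds the epithelial ducts. Decorin and biglycan, with asporin as their close relative, form one class of the family, and lumican, fibromodulin and PRELP form another, while osteoglycin belongs to neither. They set the width and spacing of collagen fibrils and can hold TGF-β and other signals in the matrix. Dermatopontin is a small matrix protein that binds decorin. Pdgfra encodes the receptor for platelet-derived growth factor A and is widely used to mark fibroblasts.

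The total count was 20134890 to 37296640 per library, so that 3 counts, taken as the lowest level that can be told from none, were worth 0.0804 to 0.149 CPM, the count scaled to a fixed library total. That limit covers counting error only, since the libraries hold no molecular identifiers. Levels below are CPM scaled by edgeR's TMM factors, on which scale 3 counts were worth 0.0645 to 0.147 CPM. Adgra3 itself stood at 35.7 and 18.6 CPM among the samples labelled Gpr125-negative, at 15.0 and 4.83 CPM among TEB-distal samples and at 19.2 and 12.3 CPM among nipple-proximal samples. Only 1 of the 4 libraries labelled Gpr125+ was above the lower of the Gpr125-negative values (edgeR FDR = 0.982 for the distal and 1 for the proximal population), so the RNA of the reporter gene did not follow the labels, on which each direction given below rests. The 12 basal markers, among them Krt17, Krt14 and Acta2, summed to 3393 and 3554 CPM among Gpr125-negative samples, 4017 and 23031 CPM among TEB-distal samples and 9449 and 14952 CPM among nipple-proximal samples. In TEB-distal against Gpr125-negative cells, 10 of the 12 were fitted higher and 2 lower. In nipple-proximal cells 11 were fitted higher and 1 lower, and none reached an edgeR FDR under 0.1 in either comparison. The 10 endothelial markers summed to 1343 and 839 CPM in the Gpr125-negative libraries and to between 17.5 and 219 CPM in the other 4, although CD31-positive cells had been excluded.

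The family lies in clusters in the mouse genome (GRCm38, GENCODE M21). On chromosome 10, Dcn (97479609 to 97518143) and Lum (97565128 to 97572703) lie on the plus strand 46.984 kb apart, followed by Kera and Epyc. On chromosome 13, Ecm2, Aspn (49544443 to 49567565), Omd and Ogn (49608046 to 49624501) follow each other on the plus strand with gaps of 11.653, 14.896 and 15.223 kb. On chromosome 1, Prelp (133910304 to 133921414, minus strand) lies 2.304 kb from Optc and 115.839 kb from Fmod (134037254 to 134048277, plus strand), and Dpt lies far from both at 164796644 to 164824266. Bgn is on chromosome X at 73483602 to 73495933 and Pdgfra on chromosome 5 at 75152292 to 75198215, both on the plus strand.

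The start regions of 3 members are shown because their levels lay at the extremes of the family: Bgn was read in every library, while Ogn and Aspn were at or near 0 in several. Each is the 250 bases before the RefSeq start on GRCm38.p6, 5′ to 3′, with matches to the motifs searched in capitals. They are chrX:73483351-73483600 for Bgn, chr13:49607765-49608014 for Ogn and chr13:49544193-49544442 for Aspn, all on the plus strand.
Bgn: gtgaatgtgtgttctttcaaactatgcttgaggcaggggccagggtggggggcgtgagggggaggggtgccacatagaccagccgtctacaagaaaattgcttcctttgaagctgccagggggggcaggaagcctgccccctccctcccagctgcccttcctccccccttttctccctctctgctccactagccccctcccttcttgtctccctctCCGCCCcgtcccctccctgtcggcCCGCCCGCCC
Ogn: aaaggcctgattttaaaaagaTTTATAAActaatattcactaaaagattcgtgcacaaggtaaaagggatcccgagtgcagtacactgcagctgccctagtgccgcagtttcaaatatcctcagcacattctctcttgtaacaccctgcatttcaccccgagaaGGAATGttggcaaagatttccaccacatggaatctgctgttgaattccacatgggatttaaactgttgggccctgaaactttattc
Aspn: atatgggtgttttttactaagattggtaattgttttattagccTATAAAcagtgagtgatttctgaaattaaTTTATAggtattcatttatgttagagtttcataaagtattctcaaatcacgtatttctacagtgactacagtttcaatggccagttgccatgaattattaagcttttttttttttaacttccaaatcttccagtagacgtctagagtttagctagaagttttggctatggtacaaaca
The motifs, searched on both strands, were TATAAA (core of the TATA box), GGGCGG (GC box core), TGANTCA (AP-1 site), GGAATG (TEAD site core) and the CArG box of serum response factor. The Bgn region, at 64.4% G and C, held 3 GC box cores, the nearest 2 of which overlap. The Ogn region, at 42% G and C, held 2 overlapping TATA box cores near its far end and 1 TEAD site core. The Aspn region, at 30% G and C, held 2 TATA box cores. Promoter windows were given for 7 of the 9 members, Dcn and Lum being the other ones, and those of Fmod, Prelp, Dpt and Pdgfra held none of the 5 motifs. Among 32851 windows of the same length in the RefSeq set, with a median of 52.4% G and C, 32.7% held a GC box core, 12.4% a TATA box core, 6.75% an AP-1 site, 12.6% a TEAD site core and 1.47% a CArG box. A match is a stretch of letters and not a measured site.

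Decorin (Dcn), the prototype of the family, stood at 17.3 and 122 CPM among Gpr125-negative samples, 44.4 and 111 CPM among TEB-distal samples and 64.6 and 41.9 CPM among nipple-proximal samples. Its lowest and its highest value were the 2 replicates of the same group, the Gpr125-negative cells, and the 3 groups overlapped. Group means were 69.7 ± 74.1, 77.7 ± 47.0 and 53.2 ± 16.1 CPM (SD, n = 2 each). Biglycan (Bgn), a decorin relative that also signals through innate immune receptors, stood at 23.5 and 73.3, then 28.9 and 145, then 52.4 and 111 CPM in the same order. Replicate 2 was above replicate 1 in each group, and no group stood clear of another. Its means were 48.4 ± 35.3, 86.8 ± 82.0 and 81.9 ± 41.7 CPM (SD, n = 2 each). Asporin (Aspn), which binds collagen and TGF-β, was the scarcest member, with 0 and 0 counts among Gpr125-negative samples, 4 and 32 among TEB-distal samples and 0 and 17 among nipple-proximal samples. Counts over the limit of 3 were thus seen in 3 of 6 libraries, all of them Gpr125+, while both Gpr125-negative libraries, the deepest of the 6, held none.

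Among the proteoglycans of the second class, lumican (Lum), which is abundant in cornea and skin, had 34 and 576 counts among Gpr125-negative samples, 347 and 259 among TEB-distal samples and 4 and 41 among nipple-proximal samples, or 0.732 and 19.5, 13.5 and 8.82, and 0.196 and 1.93 CPM. Both TEB-distal values lay above both nipple-proximal values, and the Gpr125-negative pair spanned almost the whole range. Fibromodulin (Fmod), which competes with lumican for collagen, stood at 2.86 and 21.2, 1.44 and 37.0, and 23.8 and 3.53 CPM. The highest and the lowest value were both TEB-distal, so that the range of that group covered those of both others. Prelp, which anchors basement membranes to connective tissue, was the steadiest member at 7.92 and 12.7, 11.4 and 19.0, and 11.98 and 6.03 CPM. Its highest library was 3.15 times its lowest, against 6.17 times for Bgn, 7.05 times for Dcn, 25.7 times for Fmod and 99.3 times for Lum, with values under 3 counts set to 3 counts.

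Osteoglycin (Ogn), also called mimecan, came mostly from 1 library. It had 0 and 1011 counts among Gpr125-negative samples, 0 and 92 among TEB-distal samples and 1 and 0 among nipple-proximal samples. The second Gpr125-negative library held 91.5% of its summed CPM. Dpt had 37 and 1, 2 and 239, and 11 and 1 counts, and the second TEB-distal library held 84.5% of its summed CPM. Pdgfra had 123 and 1 counts among Gpr125-negative samples, 173 and 121 among TEB-distal samples and 1 and 17 among nipple-proximal samples. In both Gpr125-negative and nipple-proximal cells, 1 of the replicates was thus at 1 count, while the TEB-distal libraries had its 2 highest values, 6.75 and 4.12 CPM. An antibody to CD140a, the protein of Pdgfra, is listed among the study's flow cytometry reagents with the same biotin label as those to the excluded lineages, and its part in the level of Pdgfra was not tested.

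**Figure D1:**
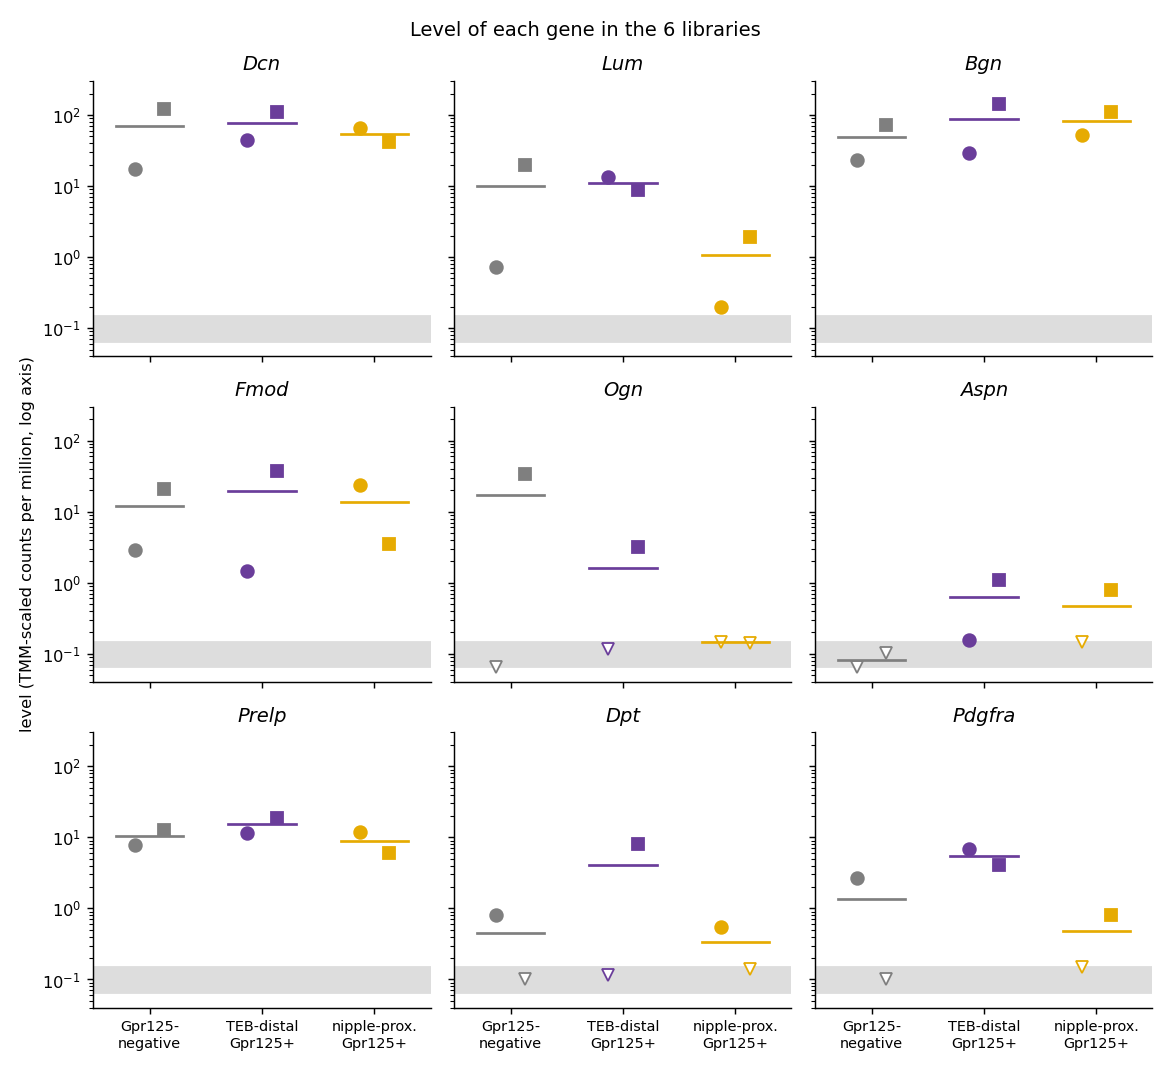
TMM-scaled CPM (log axis) of each of the 9 genes in the 6 libraries, with circles for replicate 1, squares for replicate 2 and a bar at the group mean. Open triangles are libraries with at most 3 counts, drawn and averaged at the level of 3 counts, and the grey band spans that level over the libraries. Dcn, Bgn and Prelp are well above the band in all 6 libraries, while Ogn, Aspn, Dpt and Pdgfra fall into it in 2 to 4 libraries.

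Of the 9 members, 5 (Dcn, Lum, Bgn, Fmod and Prelp) were over 3 counts in all 6 libraries, Pdgfra in 4, Aspn and Dpt in 3 and Ogn in 2. The second TEB-distal library held the highest value of 5 members, the second Gpr125-negative library that of 3 and the first TEB-distal library that of Pdgfra. The second TEB-distal library also had the highest sum of basal markers (23031 CPM) and of fibroblast markers (144 CPM), and the part of these in the members' levels was not tested. The SD between replicates on the log2 CPM scale had a median of 2.24 over the 9 members and of 1.10 over the 17268 genes tested. It was over 2 for 5 of the 9 members (Lum, Fmod, Ogn, Dpt and Pdgfra) and for 21.0% of all genes tested. It was smallest for Prelp, at 0.572, and largest for Ogn, at 4.30. Between groups lay a median of 23.3% of the members' variance and 30.4% of that of all genes tested, from 0.550% for Fmod and 7.26% for Dcn to 50.9% for Lum and 54.7% for Pdgfra. With 2 libraries a group, the spread between replicates alone gives part of such a share, so it does not measure a group effect.

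Levels were compared between members per kilobase of exon (RPKM from the TMM-scaled CPM). Bgn and Dcn led with mean levels of 11.9 and 11.5 RPKM over the 6 libraries, followed by Fmod at 4.53, Prelp at 3.18, Lum at 3.04, Ogn at 2.43, Dpt at 0.931, Pdgfra at 0.239 and Aspn at 0.145 RPKM. Neighbours in this order were compared by an exact sign-flip permutation test over the 6 libraries, two-sided, on log2 RPKM. Dcn was above Fmod in 6 of 6 libraries, by 1.96 ± 1.31 on the log2 scale (SD, n = 6, exact p = 0.0312, adjusted p = 0.25 over the 8 neighbouring pairs). None of the 8 pairs passed after adjustment, and 0.0312 is the smallest p that 6 libraries allow. A lone pair at that p adjusts to 0.25, so the test could hardly separate neighbours and draws no line between them. The order was set from the same libraries. The place of Bgn depended on the length used, since with its longest transcript in place of all exons it stood at 27.2 RPKM against 14.3 RPKM for Dcn and was above Dcn in 6 of 6 libraries (exact p = 0.0312, adjusted p = 0.125).

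Within the family, the make-up of each library differed although Dcn kept a like share. Dcn took 29.2% and 32.6% of the summed RPKM of the 7 proteoglycans among Gpr125-negative samples, 35.4% and 29.5% among TEB-distal samples and 36.5% and 24.5% among nipple-proximal samples. Bgn took 37.8% and 18.7%, 21.97% and 36.8%, and 28.4% and 62.4%. The share of Lum was 2.94% and 12.4% in Gpr125-negative cells, 25.7% and 5.59% in TEB-distal cells and 0.265% and 2.69% in nipple-proximal cells, so that the TEB-distal and Gpr125-negative ranges overlapped and the nipple-proximal values were the lowest of the 6. Ogn took 20.8% in the second Gpr125-negative library and at most 1.89% elsewhere. The summed level itself was 10.2 and 64.2, 21.5 and 64.5, and 30.3 and 29.3 RPKM. It was closest between the nipple-proximal replicates.

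**Figure D2:**
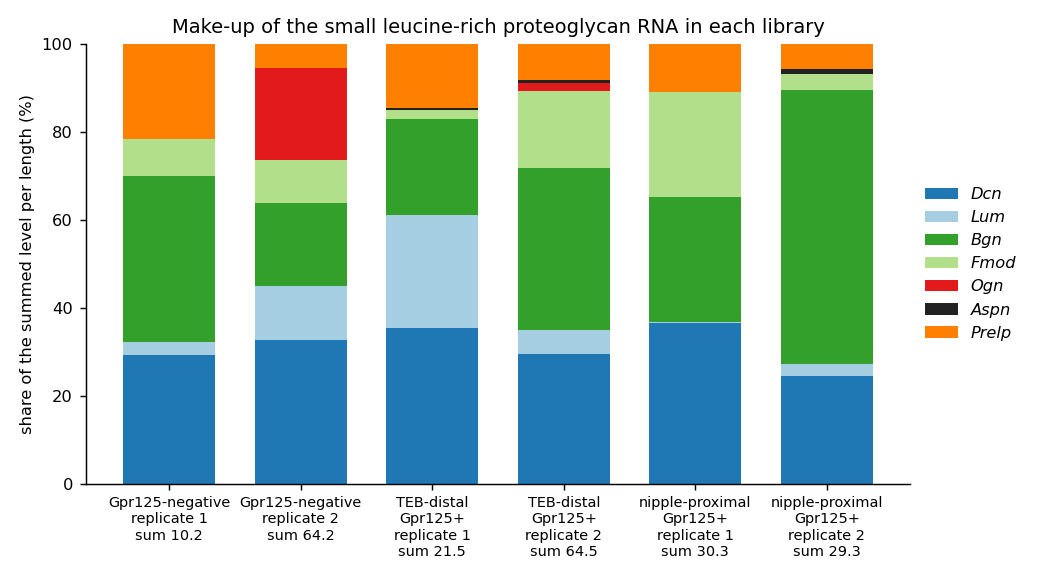
Share (%) of each of 7 proteoglycan genes in their summed level per length in each library, with the sum in RPKM under each bar. Dcn takes between 24.5% and 36.5% in every library, whereas Bgn ranges from 18.7% to 62.4% and Ogn is visible mainly in the second Gpr125-negative library.

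The first comparison asked how TEB-distal Gpr125+ cells differed from Gpr125-negative cells. By edgeR's quasi-likelihood test, at a Benjamini-Hochberg adjusted p (FDR) under 0.1 and at least 2-fold, 0 of the 9 members were called, and so were 0 of 17268 genes (0%). At an unadjusted p under 0.05 there were 0 members and 1045 genes (6.05%), by DESeq2 on the same 4 libraries 0 members and 682 of 15736 genes (4.33%), and by DESeq2 on all 6 libraries 0 members and 943 of 17376 genes (5.43%). The fitted change was above 0 for 8 of 9 members, with a median log2 fold change of 0.68 against 0.03 over all genes tested. The groups did not overlap for 2 members, Aspn and Pdgfra, both higher in TEB-distal cells, where 14% of all genes tested were higher without overlap and 24% did not overlap in either direction. For Aspn, with no count in Gpr125-negative cells, the mean TEB-distal level was at least 7.49-fold higher, taking 3 counts in each Gpr125-negative library (edgeR FDR = 0.843), and without the second TEB-distal library at least 1.88-fold higher. Pdgfra differed by 2.01 on the log2 scale (SE 2.16) and Dpt by 3.28 (SE 2.57), each with an edgeR FDR of 1. SE here and below is the absolute fitted change divided by the square root of edgeR's F statistic. It is an approximation and not a standard error estimated by the model. Without the first Gpr125-negative library the difference of Pdgfra was 7.004, and without the second it was 1.03. Lum and Dcn differed by 0.14 (SE 1.66) and 0.16 (SE 0.96), so that a level 2-fold higher in TEB-distal cells lay within 1 SE of either value. With the second TEB-distal library left out, the fitted change of Dpt went from 3.28 to -2.36, and that of Fmod from 0.68 to -3.06. Without the second Gpr125-negative library that of Ogn went from -3.44 to 8.48.

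In the comparison of nipple-proximal Gpr125+ with Gpr125-negative cells, edgeR again called 0 of 9 members and 0 of 17268 genes (0%), with 0 members and 613 genes (3.55%) at an unadjusted p under 0.05. DESeq2 on all 6 libraries called 0 members and 321 of 16294 genes (1.97%). This comparison shares its 2 Gpr125-negative libraries with the first, so the results are not independent. The fitted change was above 0 for 3 of 9 members (Aspn, Bgn and Fmod), with a median of -0.39 against -0.0032 over all genes tested, and the groups overlapped for all 9 members, where 30.6% of all genes tested did not overlap. Lum differed by -3.24 (SE 1.82) with an edgeR p of 0.114 and an FDR of 1. For Ogn, the Gpr125-negative libraries held 1011 counts together and the nipple-proximal libraries 1, a ratio of 553 with an exact 95% counting interval of 99.1 to 21881. That interval covers counting error only, and all 1011 counts came from 1 library. DESeq2 on the 4 libraries called Ogn (log2 fold change -9.65, FDR = 0.0341) among 317 of 15829 genes (2%), whereas edgeR did not (log2 fold change -9.23, SE 4.14, FDR = 1) unless genes with low counts were kept in the fit (FDR = 0.0417). Without the second Gpr125-negative library the fitted change of Ogn turned to 2.72 and that of Lum to 0.54. The mean nipple-proximal level of Aspn was at least 4.82-fold higher than in Gpr125-negative cells, with all of its counts in 1 of the replicates.

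The third comparison set both Gpr125+ populations side by side. By edgeR, 0 of 9 members and 0 of 17268 genes (0%) were called, and 0 members and 381 genes (2.21%) had an unadjusted p under 0.05. All 9 members had a fitted change above 0, that is, higher in TEB-distal cells, with a median of 0.76 against 0.06 over all genes tested. Among all genes tested 9091 of 17268 were above 0. The groups did not overlap for Lum and Pdgfra, both higher in TEB-distal cells, where 15.2% of all genes tested were higher without overlap and 33.5% did not overlap in either direction. Lum differed by 3.39 (SE 1.83, edgeR FDR = 1) and was called by DESeq2 on the same 4 libraries (log2 fold change 3.46, FDR = 0.0852) among 357 of 15826 genes (2.26%), but not by DESeq2 on all 6 libraries, which called 133 of 15753 genes (0.844%) and no member. Pdgfra differed by 3.66 (SE 2.33, edgeR FDR = 1) and Prelp by 0.76 (SE 0.96, FDR = 1). For Ogn the ratio of TEB-distal to nipple-proximal level was 69.6 with an exact 95% counting interval of 12.2 to 2777, from 92 counts in 1 library against 1. Bgn differed by 0.08 (SE 0.95).

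**Figure D3:**
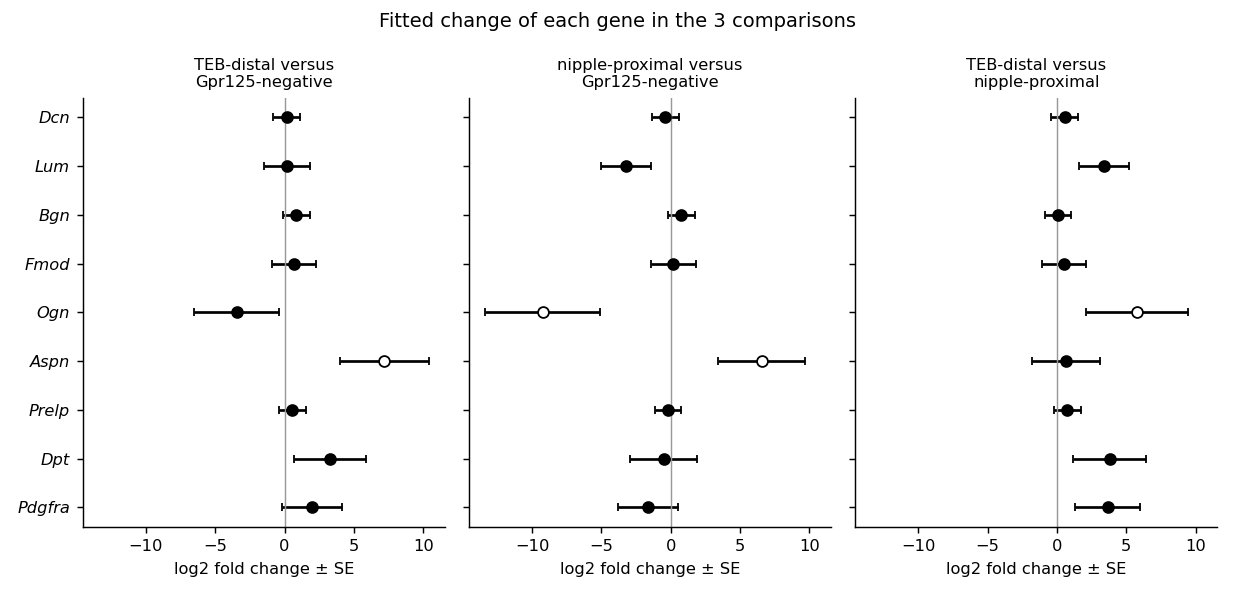
Log2 fold change (edgeR) of each member in the 3 comparisons, with bars of 1 SE (approximated from the F statistic), over 2 libraries a group. Open circles are members with at most 3 counts in both libraries of a group, whose fitted value depends on the prior count. All 9 values lie above 0 in the comparison of TEB-distal with nipple-proximal cells, and none was called.

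Leaving out each library in turn showed which directions rested on 1 library. Against Gpr125-negative cells, Aspn, Pdgfra and Prelp remained above 0 in TEB-distal cells in every such fit, and Aspn and Bgn in nipple-proximal cells, where Bgn came down to 0.02 without 1 library and Aspn had no value without its only library with counts. Between the Gpr125+ populations Lum, Pdgfra and Prelp remained above 0, with ranges of 2.53 to 5.78, 2.75 to 6.66 and 0.32 to 1.33 on the log2 scale. The other members changed sign in at least 1 fit of each comparison, and no member was called in these fits.

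**Figure D4:**
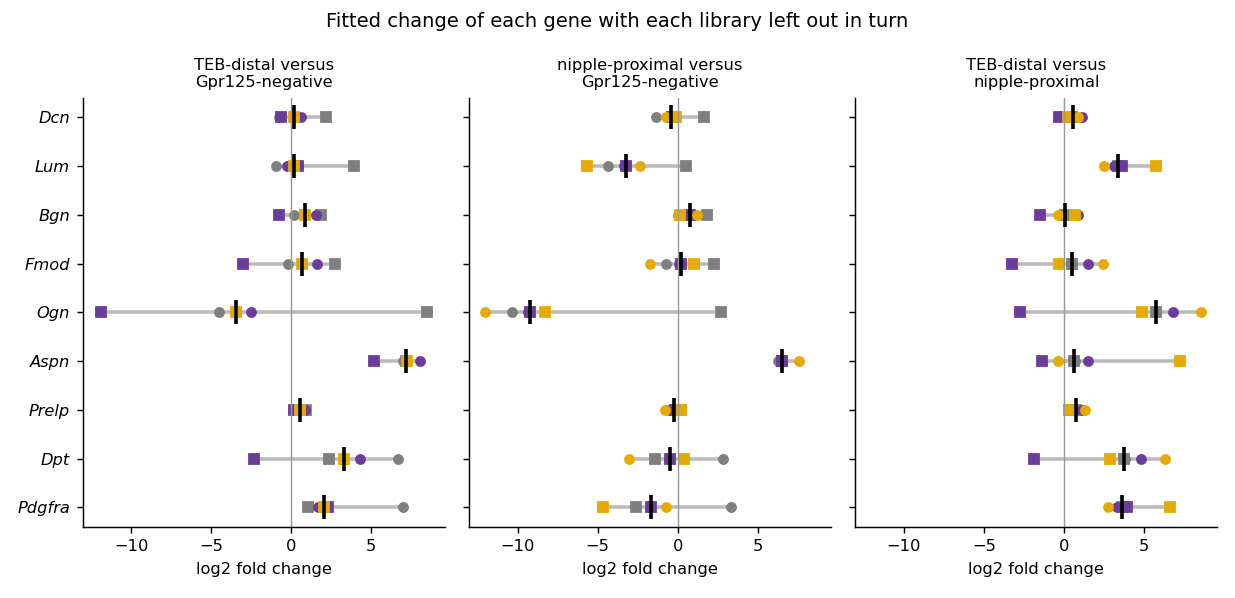
Log2 fold change (edgeR) of each member with all 6 libraries (black tick) and with each library left out (points coloured by the group of the library left out, grey for Gpr125-negative, purple for TEB-distal and yellow for nipple-proximal, circles for replicate 1 and squares for replicate 2). Ogn spans the widest range, from -11.93 to 8.48 for TEB-distal versus Gpr125-negative cells, and Prelp stays within 1.33 of 0 throughout.

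The other 10 proteoglycans of the family were mostly scarce. Kera, Epyc, Optc and Chad were at 0 in all 6 libraries, Podn had 3 counts and Omd 8 counts in all, and 4 of the 10 passed the filter. Tsku (tsukushi), which binds BMP and Wnt signals, had 931 and 115, 0 and 82, and 322 and 223 counts. Ecm2 had 46 and 63, 309 and 98, and 20 and 41 counts, both TEB-distal libraries being the highest. Among all genes tested, 14% were higher without overlap in TEB-distal than in Gpr125-negative cells and 15.2% than in nipple-proximal cells. Nyx had 172 and 0, 140 and 4, and 13 and 19 counts, and Podnl1 had 77 and 0, 0 and 0, and 18 and 0. None of the 4 was called in any comparison, and Ecm2, which neighbours Aspn on chromosome 13, had fitted differences of 2.30 (SE 1.56) and 2.40 (SE 1.57) on the log2 scale against Gpr125-negative and nipple-proximal cells. In this cluster Omd, which lies between Aspn and Ogn, had 7 counts in the second TEB-distal library and 1 in the second nipple-proximal library.

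Of 12 collagens and fibril proteins or their processing genes, 9 to 12 were over 3 counts in a library, and Col1a1 had no count in the second Gpr125-negative library. All 12 were tested and 0 were called by edgeR in any comparison, with 3 at an unadjusted p under 0.05 between TEB-distal and Gpr125-negative cells. DESeq2 on the 4 libraries called 1 of them in that comparison, Lox, a collagen crosslinking enzyme (log2 fold change -6.66, FDR = 0.0332). Between the Gpr125+ populations it called 3, Col1a2 (2.88, FDR = 0.0362), Col11a1 (3.22, FDR = 0.0672) and Lox (-4.78, FDR = 0.0546). DESeq2 on all 6 libraries called Lox and Col1a2 in the first comparison and none in the others. Lox had 5 and 674, 1 and 6, and 60 and 86 counts, so its difference from Gpr125-negative cells rested on the second Gpr125-negative library. The median log2 fold change of the 12 genes was 1.54, -0.12 and 1.27 in the 3 comparisons, and 8, 6 and 11 of 12 were above 0. The most abundant by CPM were Col12a1 and Col14a1, collagens that coat fibrils, and Col5a1, which starts them. Col12a1 stood at 17.1 and 131, 43.6 and 94.6, and 70.1 and 50.7 CPM. By the root mean square distance of centred log2 CPM over the 6 libraries, Col12a1 was also the gene nearest to Dcn, at 0.156, followed by Vim at 0.188. Col14a1 stood at 6.11 and 16.2 CPM in Gpr125-negative cells and at 34.0 to 71.5 CPM in the 4 Gpr125+ libraries, with an edgeR p of 0.0170 and an FDR of 0.803 for TEB-distal cells.

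Enzymes that build the sugar chains of the chondroitin and dermatan sulfate kind were over 3 counts for 17 to 21 of 22 genes in a library. Of 22 genes for chondroitin and dermatan sulfate synthesis, 21 were tested and 0 called by edgeR, with medians of -0.10, 0.12 and -0.27, led by Chpf2, Chpf and Fam20b. DESeq2 on the 4 libraries compared called 1 of them in each comparison with Gpr125-negative cells, Csgalnact1 (log2 fold change -5.98, FDR = 0.0702) for TEB-distal and Ust (3.36, FDR = 0.0439) for nipple-proximal cells. DESeq2 on all 6 libraries called both for TEB-distal and Ust for nipple-proximal cells. Csgalnact1 had 616 and 3 counts in Gpr125-negative cells and 2 and 4 in TEB-distal cells, so its call rested on the first Gpr125-negative library. Of 6 genes for keratan sulfate synthesis, 5 were tested and 0 called by edgeR, and all 5 were fitted lower in TEB-distal than in nipple-proximal cells, with a median of -2.19. DESeq2 on the 4 libraries called 1 of them there, Chst1 (log2 fold change -5.33, FDR = 0.0481). Chst1 had 338 and 20 counts in nipple-proximal cells and 11 and 0 in TEB-distal cells. B4galt1, the most abundant of the 6, stood at 8.15 and 18.4 CPM in TEB-distal cells and at 19.7 and 20.3 CPM in nipple-proximal cells. B4galt4, which extends the chain, had 391 and 367 counts in nipple-proximal cells and 1 and 108 in TEB-distal cells. Lum and Fmod, whose proteins carry keratan sulfate, had fitted values of the other sign in that comparison, 3.39 (SE 1.83) and 0.50 (SE 1.61). The value of Fmod changed sign with some libraries left out (-3.26 to 2.43), so its direction is not settled. Of 11 ligands and receptors of the proteoglycans none was called by edgeR or DESeq2, with medians of -0.17, -0.31 and 0.03. Of 9 proteases that cut or process them edgeR called none, while DESeq2 on the 4 libraries called Tll1 between nipple-proximal and Gpr125-negative cells (log2 fold change 6.68, FDR = 0.0345) and Mmp3 between the Gpr125+ populations (1.98, FDR = 0.0755), and DESeq2 on all 6 libraries called Tll1 and Adamts4 in the former. Mmp14, the most abundant of the 9, stood at 99.7 and 156 CPM in TEB-distal cells and at 242 and 132 CPM in nipple-proximal cells. In Gpr125-negative cells it stood at 228 and 72.2 CPM. Mmp3 (stromelysin 1) stood at 165 and 190 CPM in TEB-distal cells, 42.1 and 51.2 CPM in nipple-proximal cells and 130 and 200 CPM in Gpr125-negative cells, with an edgeR p of 0.0183 and an FDR of 1 between the Gpr125+ populations.

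Of the PDGF genes other than Pdgfra, Pdgfa, its main ligand, stood at 89.4 and 82.4, 94.4 and 332, and 160 and 122 CPM, with no overlap between either Gpr125+ population and Gpr125-negative cells. Pdgfb had 40 and 0 counts in Gpr125-negative cells and 130 to 515 in the Gpr125+ libraries (edgeR FDR = 0.816 for TEB-distal cells). Pdgfc had 166 and 752, 107 and 198, and 149 and 396 counts. None of the 5 PDGF genes tested was called by edgeR, and DESeq2 on all 6 libraries called Pdgfb between TEB-distal and Gpr125-negative cells (log2 fold change 4.69, FDR = 0.0597).

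Other fibroblast genes were present at low levels. The 17 fibroblast markers other than the members summed to 69.3 and 77.1 CPM in Gpr125-negative cells, 115 and 144 CPM in TEB-distal cells and 46.6 and 41.6 CPM in nipple-proximal cells, and Fap and Tcf21 were at 0 in all 6 libraries. Between 7 and 13 of the 17 were over 3 counts in a library, and Serpinf1, Prrx1 and Scara5 were the most abundant. Of the 12 tested, 9 were fitted higher in TEB-distal than in nipple-proximal cells, with a median of 1.59 against 0.06 over all genes tested, and 0 were called by edgeR. DESeq2 on the 4 libraries called 2 of them there, Col1a2 and Clec3b. Clec3b had 3 and 116 counts in TEB-distal cells and 0 and 0 in nipple-proximal cells. Some markers, among them Col1a1 and Col1a2, were also in the list of collagens and fibril genes above, so the lists are not independent. The order of the sums rested in part on Serpinf1, which alone gave 52.6 and 70.4 CPM in TEB-distal cells. Without it, a choice made after seeing the data, the sums were 36.2 and 72.5 CPM in Gpr125-negative cells, 62.1 and 73.9 CPM in TEB-distal cells and 21.5 and 32.1 CPM in nipple-proximal cells, so that the TEB-distal and Gpr125-negative ranges overlapped and the nipple-proximal sums were still the lowest. The 8 pericyte markers summed to 10.7 and 56.6, 10.6 and 28.3, and 13.8 and 37.2 CPM. Whether RNA from such cells in the sorted samples had a part in the members' levels was not tested, and in bulk RNA fewer cells of a type and less RNA per cell cannot be told apart.

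**Figure D5:**
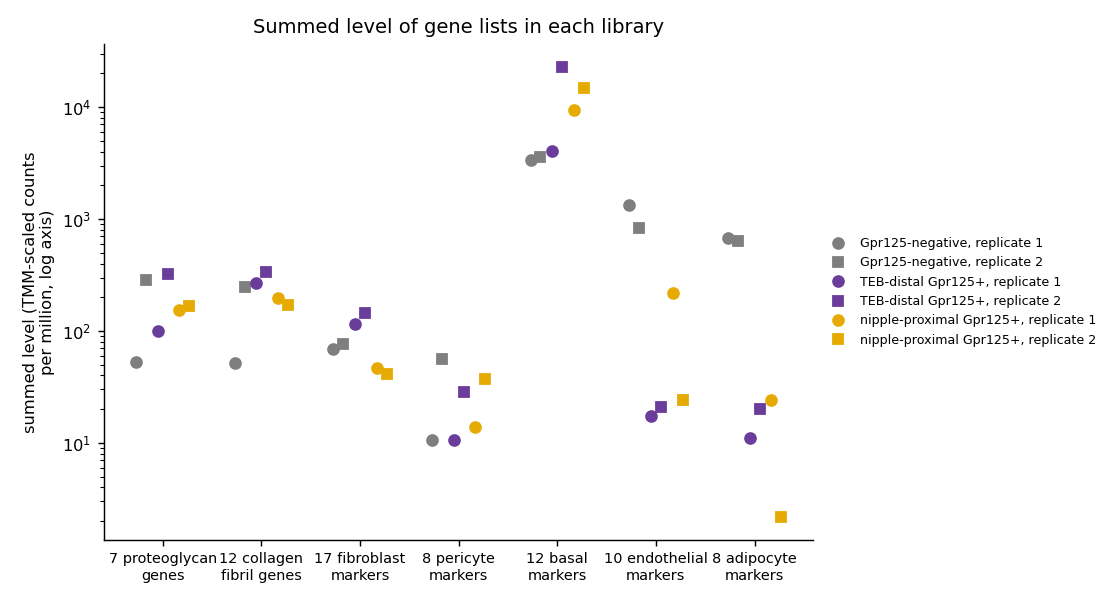
Summed TMM-scaled CPM (log axis) of the 7 proteoglycan genes and of 6 gene lists in each library, coloured by group, with circles for replicate 1 and squares for replicate 2. The fibroblast markers are highest in the 2 TEB-distal libraries (115 and 144 CPM, of which Serpinf1 gives 52.6 and 70.4 CPM), while the proteoglycan sum is highest in the second TEB-distal and second Gpr125-negative libraries (325 and 283 CPM). The adipocyte sums in the Gpr125-negative libraries (672 and 635 CPM) are almost all from Fabp4 (672 and 631 CPM). The fibroblast and collagen fibril lists share some genes, among them Col1a1 and Col1a2.

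The genes outside the 9 members whose profiles over the 6 libraries were nearest to each member were found by the same distance. For Bgn they were Saraf (0.225), Txndc11 (0.237) and P4ha2 (0.237), for Prelp Carmil2 (0.177), Fhod1 (0.191) and Septin1 (0.200), and for Aspn Ccdc155 (0.0935), Adamts17 (0.397) and Gm47794 (0.403). Ccdc155 had 0 and 0, 4 and 38, and 0 and 19 counts, so its small distance from Aspn rests on few counts and shared zeros. The nearest genes lay further off for Fmod (Gm16166, 0.457), Dpt (Trim66, 0.404), Pdgfra (9530034E10Rik, 0.486), Lum (Gm43185, 0.528) and Ogn (Susd2, 0.810). The distance was not scaled by the spread of each gene, so these values are not a measure of shared regulation. Gm12318, Lrrc73 and Id1 were nearest to the mean profile of the 9 members, at 0.252, 0.291 and 0.297.

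The transcripts of the members held little sequence in common with other genes. No stretch of 50 bases was shared between the transcripts of any of the 7 proteoglycan members, and such stretches shared with any other gene made up 0% of the transcripts of Dcn, Lum, Fmod, Ogn, Aspn and Dpt, 0.142% of Bgn, 8.47% of Prelp and 4.93% of Pdgfra. Counting took no account of strand. The exons of Prelp overlap those of the antisense gene Gm15851 by 350 bases and those of Pdgfra overlap Gm42802 by 456 bases, and both other genes were at 0 in all 6 libraries.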

How the data were processed

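RNA was analysed from 6 libraries, 2 in each of 3 groups set by the sample labels. Per the labels, RNA was amplified with the SMART-Seq HT kit, and the submitters' processing notes name CASAVA, STAR 2.7.3 and the build mm10, while the paper's text names another version of STAR. The authors counted reads per gene with HTSeq and deposited raw read counts without normalization. No column of another sample was present (0).

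The analysis used R 4.3.3 and edgeR 4.0.16, with TMM scaling, filterByExpr and a robust quasi-likelihood fit of all 6 libraries together. Calls required a Benjamini-Hochberg FDR under 0.1 and at least 2-fold, the limits that the study's methods give for its comparisons with Gpr125-negative cells. Between the Gpr125+ populations those methods name an adjusted p under 0.05, at which the DESeq2 call of Lum would be lost. DESeq2 1.42.0 was run as an alternative. Log2 CPM used a prior count of 2. The biological coefficient of variation was 0.967, and with 2 libraries against 2 an exact permutation test cannot go below p = 0.333. Scripts were tested on simulated counts with 200 changed genes. Between TEB-distal and Gpr125-negative cells, edgeR called 0% of these at a 4-fold change and 48.5% at a 16-fold change. DESeq2 on all 6 libraries called 168 to 215 genes between simulated nipple-proximal and Gpr125-negative libraries, where 0 were changed. A count of 0 by edgeR is thus no sign of equal levels, and some DESeq2 calls may be false.

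The members, gene lists and tests were chosen with earlier results of these data known. Every member and the other 10 proteoglycans were named, with up to 3 genes of each other list by mean CPM and the genes of nearest profile. Adgra3 was named as the reporter gene, and Vim, B4galt1, B4galt4, Mmp14 and Pdgfb by these rules. Not every gene within these ranks was described, and Krt5 and Trp63 were named as the basal markers fitted lower. Outside these rules, Lox, Col1a2, Col11a1, Csgalnact1, Ust, Chst1, Tll1, Adamts4 and Clec3b were named for their DESeq2 calls in these data. Col1a1, Fap and Tcf21 were named for counts of 0. Replicates did not hold identical counts. Alternatives were DESeq2, other filters, scaling, thresholds, the replicate block and leaving out each library.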

Additional observations from a re-analysis of the deposited data

How the results depend on the processing

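edgeR called 0 genes and 0 members in each of the 3 comparisons. For TEB-distal versus Gpr125-negative cells, nipple-proximal versus Gpr125-negative cells and TEB-distal versus nipple-proximal cells in turn, DESeq2 on all 6 libraries called 943, 321 and 133 genes, DESeq2 on the 4 libraries compared 682, 317 and 357, and edgeR without the filter on low counts 137, 58 and 39. Of the members, DESeq2 on the 4 libraries called 1 (Ogn) in the second comparison and 1 (Lum) in the third, and edgeR without the filter called 1 (Ogn) in the second. The cause was not tested. With each library left out, edgeR called 0 to 747, 0 to 335 and 0 to 12 genes and no member. The 747 and 335 genes were called without the first Gpr125-negative library, and the lone library of a group was then assumed to vary like the others.

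Some fitted changes turned sign with each library left out. For TEB-distal versus Gpr125-negative cells these were Dcn (-0.77 to 2.16), Lum (-0.94 to 3.92), Bgn (-0.75 to 1.88), Fmod (-3.06 to 2.74), Ogn (-11.93 to 8.48) and Dpt (-2.36 to 6.64). For nipple-proximal versus Gpr125-negative cells they were Dcn (-1.33 to 1.63), Lum (-5.64 to 0.54), Fmod (-1.76 to 2.26), Ogn (-12.02 to 2.72), Prelp (-0.77 to 0.23), Dpt (-3.04 to 2.83) and Pdgfra (-4.65 to 3.33). For TEB-distal versus nipple-proximal cells they were Dcn (-0.28 to 1.12), Bgn (-1.52 to 0.89), Fmod (-3.26 to 2.43), Ogn (-2.72 to 8.57), Aspn (-1.35 to 7.24) and Dpt (-1.87 to 6.32). Without the second nipple-proximal library no value could be given for Aspn against Gpr125-negative cells. Among the other settings, Fmod turned to -0.0045 with DESeq2 on 6 libraries and to -0.013 with DESeq2 size factors in the second comparison. The level per length of Bgn went from 11.9 to 27.2 RPKM with its longest transcript.

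The replicate numbers were not shown to pair the libraries, since deviations of same-numbered libraries correlated at -0.035, 0.19 and -0.0049 in the 3 comparisons. With the replicate block edgeR called 0 genes and 0 members, and the fitted change turned to 0.23 for Dcn in the second comparison and to -0.24 for Bgn and -1.33 for Fmod in the third. Ogn, Aspn, Dpt and Pdgfra were at 3 counts or fewer, not told from none, in 2 to 4 libraries. Without Serpinf1, chosen after seeing the data, the mean fibroblast sum went from 73.2 to 54.4 CPM in Gpr125-negative, from 129 to 68.0 CPM in TEB-distal and from 44.1 to 26.8 CPM in nipple-proximal cells. Without Cd68, the leukocyte sums went from 79.7 to 22.5, 229 to 24.5 and 158 to 19.7 CPM.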
